A study of Mus musculus with 18 samples.

Results

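The nuclear pore complex is the channel through which RNA and proteins pass between the nucleus and the cytoplasm. The 32 genes described here encode its components (nucleoporins) and Rangap1, the Ran GTPase-activating protein that is attached to its cytoplasmic face. The genes were taken by name as nucleoporins and not by a measured threshold, although the group was picked with earlier results of these data known, and they are all among the 19153 genes with deposited values. All 32 also passed the filter on low counts, which 17672 genes passed.

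The RNA-seq libraries were made from an immortalized myoblast line of a p53 knockout mouse, so that all 6 groups lack p53. LAP2α knockout (KO) cells carry a Cas9-made disruption of *Lap2α*, and wildtype (WT) control cells received Cas9 without the sgRNA. Both were sorted in bulk and are not single clones. Each genotype was sampled while proliferating (Prol), on reaching confluence in 20% serum (D0) and at day 2 of differentiation after 48 hours in 5% serum (D2), with 3 replicate libraries in each group and 18 in all. The labels do not say whether replicates were separate cultures, so p-values measure the spread between these libraries, which may be technical.

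Pores are built around stacked rings of repeated protein subunits. An outer ring, the Y complex, lies on both faces of the nuclear envelope, an inner ring lines the channel, membrane-spanning nucleoporins anchor the pore, and flexible nucleoporins fill the channel. Filaments on the cytoplasmic face and a basket on the nuclear face hold proteins of mRNA export and the Ran cycle. In dividing cells new pores are made in interphase and after each mitosis, whereas cells that no longer divide keep many of their scaffold proteins for long periods. In muscle cells the membrane nucleoporin Nup210 is known to be added to pores during differentiation.

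Library totals were 26437823 to 41619015 expected counts, and the 32 genes together had 1665 to 4777 CPM (expected counts scaled by TMM to a common library size) in a library. *Tmpo*, the gene of LAP2α, was at 300 ± 21.8 CPM in WT Prol and 246 ± 16.6 CPM in KO Prol (SD, n = 3), but its value sums all isoforms and so does not check the knockout. Of the myoblast markers, *Myf5* was at 20.5 to 27.4 CPM in the WT Prol libraries, while *Myod1*, *Des* and *Cdh15* were at 0.736 to 6.12 CPM there. The 6 markers of differentiating muscle summed to 2.41 to 13.6 CPM in WT Prol, to 2463 to 5048 CPM in WT D2 and to 1466 to 1866 CPM in KO D2. The 4 fibroblast markers in the files summed to 20.2 to 36.1 CPM in WT Prol, 121 to 200.01 CPM in WT D2 and 130.4 to 306 CPM in KO D2. Of these, *Dcn* was near 0 in WT Prol (0.0844 to 0.415 CPM) and at 30.1 to 63.8 CPM in WT D2. The endothelial, macrophage and Schwann cell markers summed to at most 8.004 CPM in any library, and the adipocyte markers to at most 31.8 CPM.

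In proliferating WT cells, pore transcripts were compared with each other as CPM per kilobase of exon. The median of the 32 genes was 23.1 CPM per kb, and 24 of them lay within 2-fold of it. *Rangap1* was highest, at 60.5 CPM per kb (48.3 to 67.9 over the 3 libraries). It was followed by 3 genes of the outer ring, which were *Sec13* (59.1 CPM per kb), *Nup85* (49.5 CPM per kb) and *Seh1l* (48.7 CPM per kb). Sec13 is also part of the COPII vesicle coat, and Seh1l and Sec13 also belong to a complex that controls amino acid signalling. *Nup210* was lowest, at 0.168 CPM per kb, below *Nupl2* (3.60 CPM per kb) and *Nup214* (9.68 CPM per kb). Of the 31 pairs of neighbours in this order, 28 had libraries that overlapped, and the steps without overlap lay below *Seh1l*, below *Nup214* and below *Nupl2*.

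**Figure D1:**
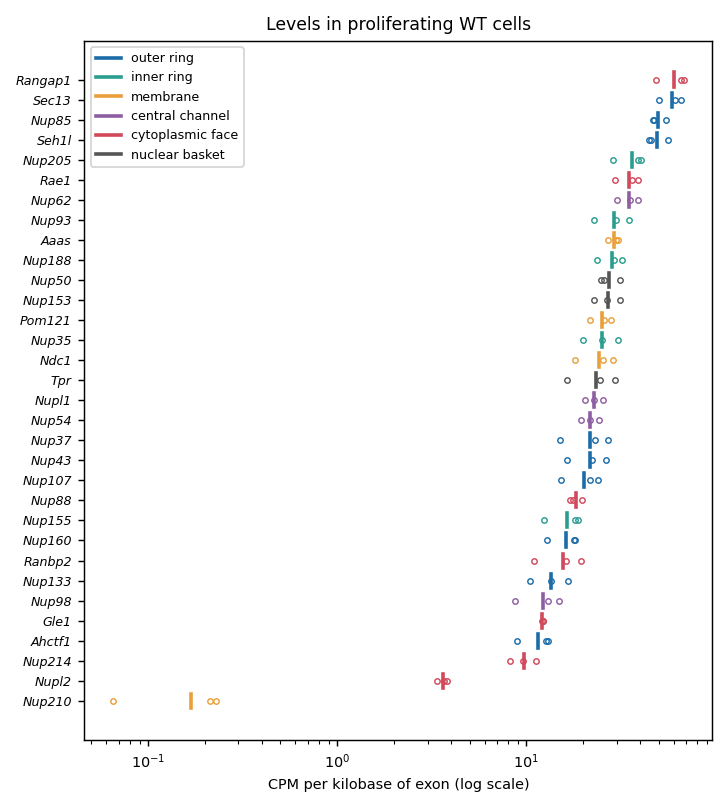
Level of 32 nuclear pore transcripts in WT Prol as CPM per kilobase of exon, on a log scale. Open circles are the 3 libraries, bars are their means, and colours give the place in the pore. Most genes lie near the median of 23.1 CPM per kb, with *Rangap1* highest and *Nupl2* and *Nup210* far below the rest.

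At D2, most pore transcripts were lower than in Prol, in both genotypes. The comparison asked how transcript levels changed in early differentiation, and a gene was called when its Benjamini-Hochberg adjusted p over all genes tested was under 0.05 in limma. In WT D2/Prol, 21 of 32 pore genes fell and none rose, against 14.1% of all tested genes called lower and 16.6% called higher. In KO D2/Prol, 25 fell and none rose, against 15.2% of all genes called lower and 17.1% called higher. The median log2 fold change of the 32 genes was -1.13 in WT (2.19-fold lower) and -1.18 in KO (2.27-fold lower), while the median over all tested genes was -0.01 and 0.02. Among the 9488 genes with a mean over 10 CPM, the median was -0.14 in both. Of these, 1936 were called lower and 1301 higher in WT, and 2153 and 1359 in KO, so expressed genes leaned towards falls. In WT D2/Prol, every D2 library was below every Prol library for 26 of the 32 genes, against 20.5% of all genes. The same number, 26, was found in KO, against 22.6% of all genes. CPM are shares of a library, and in bulk RNA fewer cells of a type and less RNA per cell cannot be told apart.

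**Figure D2:**
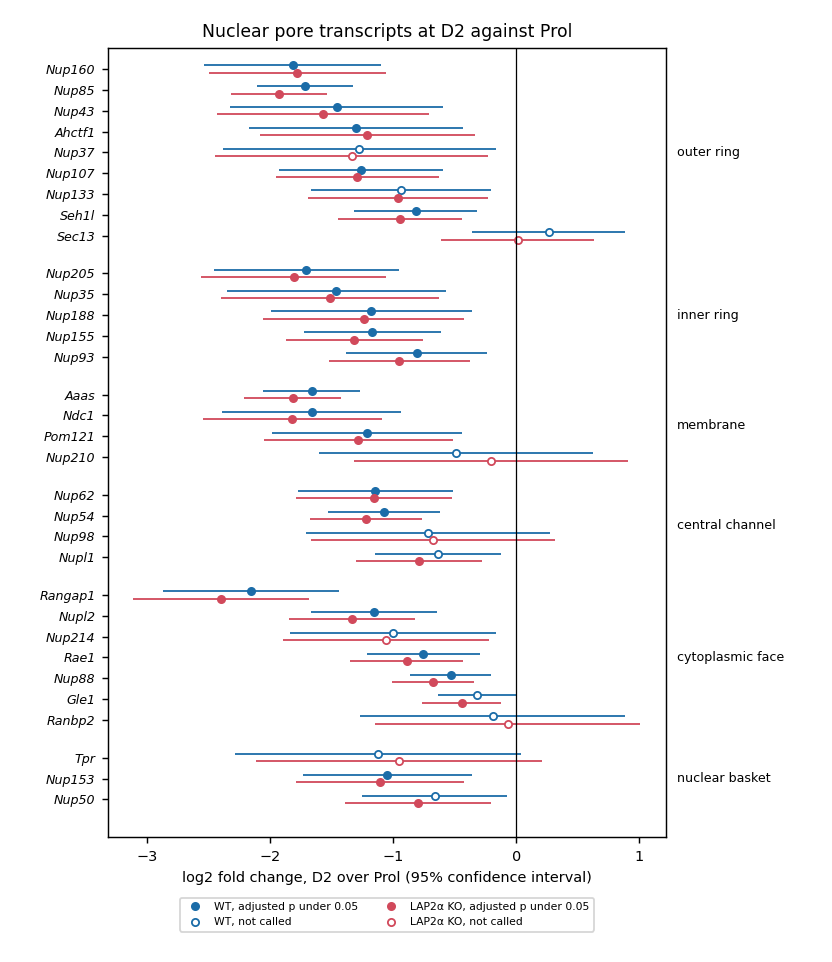
Log2 fold change of each of 32 pore transcripts at D2 over Prol in WT (blue) and KO (red), with 95% confidence intervals, grouped by place in the pore. Filled circles had an adjusted p under 0.05. All filled circles lie below 0, and *Sec13* and *Ranbp2* lie nearest to 0.

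The outer ring has 9 genes, of which 6 fell in WT and 7 in KO (median log2 fold change -1.27 and -1.29). *Nup160* was at 158, 113 and 157 CPM in the WT Prol libraries and at 52.5, 32.4 and 37.5 CPM in WT D2, and at 163, 106 and 162 CPM in KO Prol and 54.4, 30.9 and 41.0 CPM in KO D2. The groups did not overlap in either genotype. Its log2 fold change was -1.82 ± 0.34 (SE, adjusted p = 0.000734) in WT and -1.78 ± 0.34 (adjusted p = 0.000836) in KO. *Nup85*, another Y complex subunit, had the smallest adjusted p of the 32 genes. It was at 160, 158 and 184 CPM in WT Prol and at 44.8, 58.6 and 50.2 CPM in WT D2, and at 163, 169 and 175 CPM in KO Prol and 38.5, 44.7 and 51.0 CPM in KO D2. All D2 libraries were thus far below all Prol libraries. The log2 fold change was -1.72 ± 0.18 (adjusted p = 4.79e-06) in WT and -1.93 ± 0.18 (adjusted p = 1.95e-06) in KO.

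Of the other subunits of this ring, *Nup107*, *Nup43*, *Seh1l* and *Ahctf1* fell in both genotypes. Ahctf1 (ELYS) is the subunit that binds chromatin and starts pore assembly after mitosis. *Nup133* passed the test in KO (log2 fold change -0.96, adjusted p = 0.0435) and narrowly missed it in WT (-0.94, adjusted p = 0.0501). *Nup37* missed it in both, with log2 fold changes of -1.27 and -1.34 and a standard error of 0.52. *Sec13* was the exception in direction. It was at 160, 209 and 195 CPM in WT Prol and at 177, 286 and 224 CPM in WT D2, and the groups overlapped. Its log2 fold change was 0.26 (95% interval -0.36 to 0.89) in WT and 0.01 (-0.61 to 0.63) in KO. It was described with *Ranbp2*, *Tpr* and *Gle1* after the values had been seen.

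All 5 inner ring genes fell in both genotypes (median log2 fold change -1.18 in WT and -1.32 in KO). *Nup205*, a large scaffold subunit, was at 363, 266 and 376 CPM in WT Prol and at 131, 83.0 and 95.6 CPM in WT D2, and at 416, 260.2 and 396 CPM in KO Prol and 131, 77.5 and 97.9 CPM in KO D2. Its Prol and D2 libraries did not overlap. The log2 fold change was -1.71 ± 0.35 (adjusted p = 0.00169) in WT and -1.81 ± 0.35 (adjusted p = 0.00102) in KO. *Nup93*, *Nup155*, *Nup188* and *Nup35* had log2 fold changes of -0.81 to -1.46 (WT) and -0.95 to -1.51 (KO).

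Of the 4 membrane genes, *Aaas*, *Ndc1* and *Pom121* fell in both genotypes. *Aaas* encodes aladin, which binds Ndc1, and was at 85.3, 75.7 and 83.7 CPM in WT Prol and 24.98, 26.9 and 25.3 CPM in WT D2. In KO it was at 102, 79.8 and 77.0 CPM in Prol and 22.5, 24.3 and 26.4 CPM in D2. The D2 libraries of both genotypes lay within a narrow range below all Prol libraries, and the log2 fold change was -1.66 ± 0.19 (adjusted p = 6.75e-06) in WT and -1.82 ± 0.19 (adjusted p = 3.38e-06) in KO. *Ndc1*, a transmembrane nucleoporin, was at 142, 88.9 and 125 CPM in WT Prol and 54.1, 30.7 and 29.9 CPM in WT D2, and at 144, 98.7 and 124 CPM in KO Prol and 46.2, 25.6 and 33.9 CPM in KO D2. Here too the groups were apart, with a log2 fold change of -1.66 ± 0.34 (adjusted p = 0.00165) in WT and -1.82 ± 0.34 (adjusted p = 0.000766) in KO. *Pom121*, also a transmembrane nucleoporin, was at 157, 121 and 144 CPM in WT Prol and 91.9, 45.9 and 51.6 CPM in WT D2, and at 169, 112 and 151 CPM in KO Prol and 90.4, 44.8 and 48.8 CPM in KO D2. The log2 fold change was -1.21 ± 0.36 (adjusted p = 0.0182) in WT and -1.28 ± 0.36 (adjusted p = 0.0127) in KO.

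*Nup210* was low in every library. It was at 0.683, 2.39 and 2.21 CPM in WT Prol, at 0.848, 1.119 and 1.08 CPM in WT D0 and at 1.47, 0.916 and 0.963 CPM in WT D2. In KO it was at 1.27, 0.613 and 1.61 CPM in Prol, at 1.70, 0.562 and 1.21 CPM in D0 and at 1.13, 1.14 and 0.642 CPM in D2. These values rest on 19 to 65 expected counts in a library, and all groups overlapped. The log2 fold change at D2 over Prol was -0.49 (95% interval -1.60 to 0.62) in WT and -0.20 (-1.32 to 0.91) in KO, so that a rise of more than 2-fold lay outside the interval of either genotype.

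Of the 4 genes of the central channel, *Nup62* and *Nup54* fell in both genotypes (log2 fold changes of -1.14 and -1.08 in WT and -1.16 and -1.22 in KO). Nup62, Nup54 and Nupl1 (Nup58) form the complex of FG nucleoporins that fills the channel. *Nupl1* fell in KO (-0.79, adjusted p = 0.019) and missed the threshold in WT (-0.63, adjusted p = 0.0575), and 48.8% of its exon bases are shared with *Gm49336*, annotated in the same orientation, which makes its level uncertain. *Nup98*, which is made as a precursor with Nup96, was not called in either genotype (-0.72 and -0.68).

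On the cytoplasmic face, 4 of 7 genes fell in WT and 5 in KO. *Rangap1*, which stimulates GTP hydrolysis by Ran, showed the lowest log2 fold change of the 32 genes in both genotypes. It was at 330.3, 235 and 317 CPM in WT Prol and at 80.8, 62.6 and 54.8 CPM in WT D2, and at 338, 238 and 321 CPM in KO Prol and 76.8, 39.4 and 58.4 CPM in KO D2. No D2 library came near the Prol libraries, and the log2 fold change was -2.16 ± 0.34 (4.46-fold lower, adjusted p = 0.000151) in WT and -2.40 ± 0.34 (5.27-fold lower, adjusted p = 5.75e-05) in KO. *Nupl2*, *Rae1* and *Nup88*, which act in mRNA export or bind export factors, fell in both genotypes, with log2 fold changes of -1.16, -0.75 and -0.53 for WT and -1.34, -0.89 and -0.68 for KO. *Gle1*, an activator of the mRNA export helicase Ddx19, had smaller differences, with a log2 fold change of -0.44 (adjusted p = 0.0329) in KO and -0.32 (adjusted p = 0.124) in WT. *Nup214* was called in neither genotype, although its log2 fold changes were -1.01 in WT and -1.06 in KO.

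*Ranbp2*, the large filament protein that anchors Rangap1, did not follow *Rangap1*. It was at 228, 128 and 189.8 CPM in WT Prol and at 306, 95.8 and 127 CPM in WT D2, and at 233, 129.7 and 219 CPM in KO Prol and 336, 113 and 150.3 CPM in KO D2. In both genotypes the first D2 library was above all Prol libraries and the second was below them, as was the third in WT. The log2 fold change was -0.19 (95% interval -1.27 to 0.89) in WT and -0.07 (-1.15 to 1.01) in KO.

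In the nuclear basket, *Nup153* fell in both genotypes (-1.05 and -1.11), and *Nup50*, its partner in import, fell in KO (-0.80, adjusted p = 0.038) but missed the threshold in WT (-0.66, adjusted p = 0.0843). *Tpr*, the filament protein of the basket, was at 307, 172 and 258 CPM in WT Prol and 205, 69.2 and 92.6 CPM in WT D2, and the groups overlapped. Its log2 fold change was -1.12 ± 0.55 (adjusted p = 0.138) in WT and -0.95 ± 0.55 (adjusted p = 0.208) in KO.

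**Figure D3:**
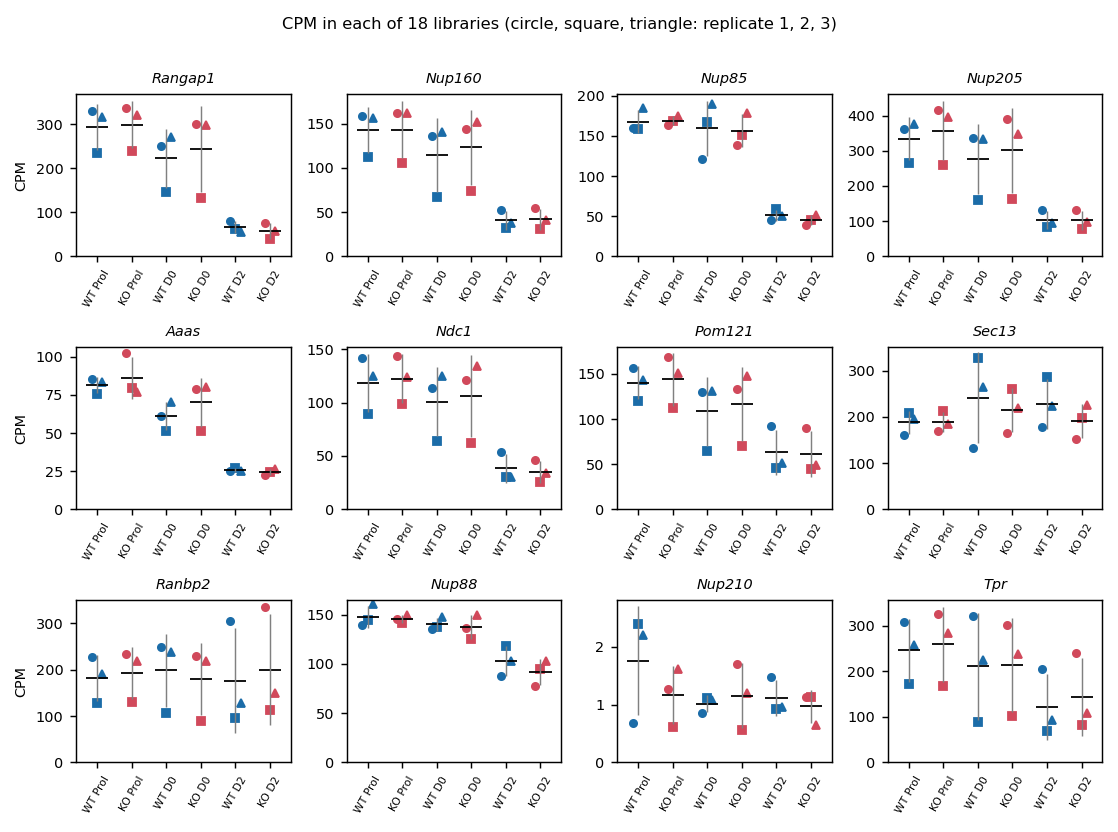
CPM of 12 pore transcripts in each of 18 libraries, with WT in blue, KO in red and circles, squares and triangles for replicates 1, 2 and 3. Horizontal bars are group means and vertical lines are 1 SD on either side (n = 3). *Rangap1*, *Nup160*, *Nup85*, *Nup205*, *Aaas* and *Ndc1* are low in both D2 groups, *Sec13* and *Ranbp2* are not, and *Nup210* stays under 2.5 CPM.

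Part of the spread between replicates followed transcript length. Relative to the group mean, long pore transcripts tended to be high and short ones low in replicate 1 of Prol, D0 and D2. The reverse held in replicate 2 of each state. Across the 32 genes, the correlation between log2 exon length and the deviation from the group mean was 0.55 in WT D2 replicate 1 and -0.65 in WT D2 replicate 2, and ranged from -0.75 to 0.61 over the 18 libraries. In Prol the correlation was 0.25 (WT) and 0.60 (KO) in replicate 1, and -0.37 and -0.75 in replicate 2. In D0 it was 0.59 and 0.58 in replicate 1, and -0.62 and -0.61 in replicate 2. This is a description over genes that share a library. It was not particular to pore genes, since the difference between the median deviation of expressed coding genes over 8 kb and that of genes under 3 kb ranged from -0.697 (WT D0 replicate 2) to 0.712 (KO D2 replicate 1). *Tpr*, *Ranbp2*, *Nup98* and *Ahctf1*, all over 10 kb, had pooled SDs of 0.75, 0.69, 0.64 and 0.55 on the log2 scale, and *Nup37* (3.33 kb) of 0.72, while *Gle1* (6.09 kb) and *Nup155* (11.95 kb) had SDs of 0.14 and 0.33. Over the 32 genes, the correlation of log2 fold change with log2 exon length was 0.11 in WT and 0.24 in KO for D2/Prol, 0.26 and 0.37 for D2/D0, and -0.33 and -0.44 for D0/Prol.

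**Figure D4:**
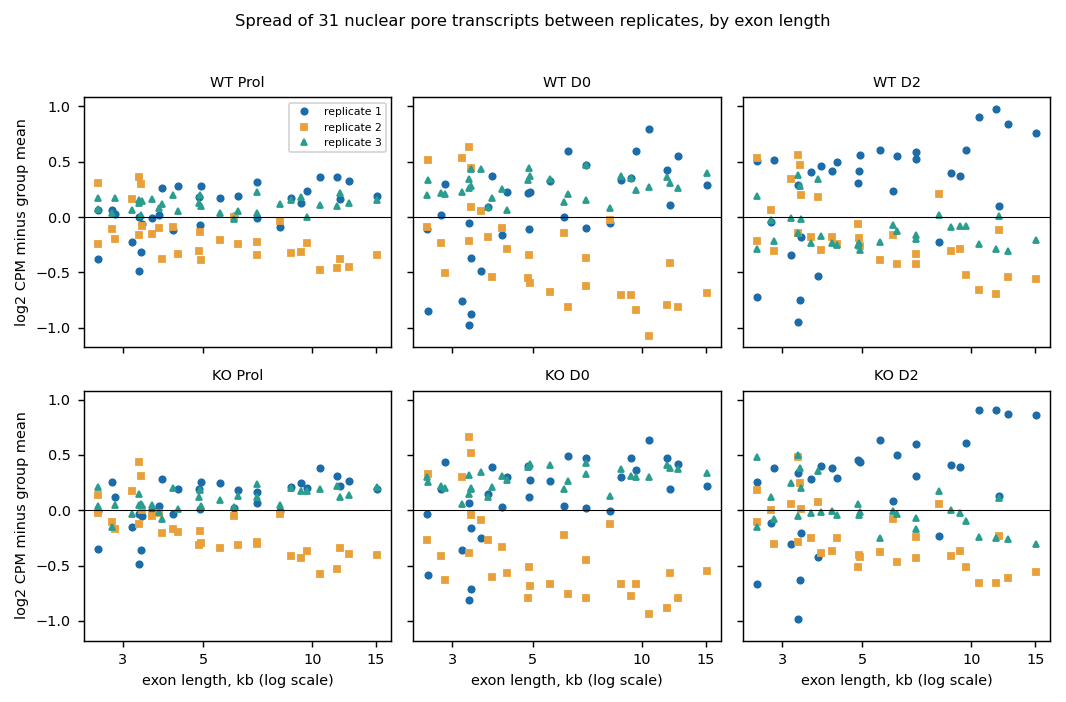
Deviation of each pore transcript from its group mean, in log2 CPM, against exon length in kb on a log scale, for the 6 groups and with 1 symbol for each replicate (31 genes, without the low *Nup210*). In all 6 groups, replicate 1 lies above 0 for most long transcripts, while replicate 2 lies below 0 for most of them.

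When a trend with length was subtracted in each library, an alternative chosen after this pattern had been seen, 24 pore genes were called lower in WT D2/Prol and 27 in KO D2/Prol. *Nup133*, *Nup214* and *Tpr* were then called in WT, with adjusted p-values of 0.0214, 0.0124 and 0.0469. Leaving out D0 replicate 2 and D2 replicate 1 of both genotypes, where long transcripts were low in D0 and high in D2, gave 28 genes in each genotype, but that choice removes high D2 libraries and so favours a larger fall. The mirror choice, without D0 replicate 1 and D2 replicate 2, gave 15 genes in WT and 18 in KO, with medians of -0.98 and -0.97. In KO D2/Prol, where same-numbered libraries deviated together, the replicate number as a block also brought *Nup37*, *Nup98*, *Nup214* and *Tpr* under the threshold (adjusted p = 1.45e-05, 0.0162, 0.000176 and 0.00176). At the cut-off of the study, an unadjusted p under 0.05 with an absolute log2 fold change over 1.5 and at least 10 CPM, 6 pore genes were lower in WT D2/Prol and 8 in KO D2/Prol. Leaving out WT Prol replicate 3 reduced the WT count from 21 to 13, and leaving out KO D2 replicate 2 reduced the KO count from 25 to 16. The share of all genes called also changes with the setting. These counts alone thus do not show a gain or loss of calls particular to pore genes.

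The decrease lay mainly between D0 and D2. On reaching confluence, no pore gene was called in either genotype by limma, where 0.00566% of all genes (1 gene) were called in WT D0/Prol and 0% in KO D0/Prol. At an unadjusted p under 0.05, 1 pore gene, *Aaas*, was found in WT, against 2.17% of all genes, and none in KO, against 1.12%. *Aaas* was at 61.3, 51.6 and 70.3 CPM in WT D0, below its WT Prol libraries, and at 78.7, 51.5 and 80.3 CPM in KO D0, which overlapped KO Prol. At D0 over Prol, 28 of 32 genes had a log2 fold change below 0 in each genotype. So did 9536 of all 17672 genes in WT and 9858 in KO. Among the 9488 genes with a mean over 10 CPM, 6018 and 5841 were below 0. The medians of the 32 genes were -0.23 in WT and -0.18 in KO, beside medians over all genes of -0.03 in both. As a mean over the 32 genes, log2 CPM in replicates 1, 2 and 3 was 6.72, 6.54 and 6.82 in WT Prol. It was 6.52, 6.18 and 6.76 in WT D0. In KO it was 6.78, 6.49 and 6.81 in Prol and 6.67, 6.11 and 6.82 in D0. Replicate 2 was thus the lowest in both states, and in D0 it was low for long transcripts. Without D0 replicate 2 and D2 replicate 1 the median log2 fold changes were -0.04 in WT and 0.05 in KO. That choice removes the low D0 libraries, keeps the low Prol ones and so favours a smaller shift. Without D0 replicate 1 and D2 replicate 2 they were -0.24 and -0.34.

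From D0 to D2, 14 pore genes fell in WT and 21 in KO, and none rose. Of all genes, 11.3% were called lower and 14.7% higher in WT D2/D0, and 12.9% lower and 15.3% higher in KO D2/D0. The median log2 fold change of the 32 genes was -0.82 in WT and -0.95 in KO. The second step was lower than the first for 31 of 32 genes in each genotype, a count that was not made over all genes. All 14 genes called in WT were among the 21 called in KO. The comparisons are not independent, since both use the same estimate of spread for a gene and same-numbered WT and KO libraries deviated together. The genes called in both include *Rangap1* (-1.72 in WT and -2.02 in KO), *Nup85* (-1.62 and -1.81), *Nup43* (-1.48 and -1.66), *Nup160* (-1.44 and -1.52), *Ndc1* (-1.39 and -1.56), *Nup205* (-1.37 and -1.50) and *Aaas* (-1.24 and -1.50). *Pom121*, called in both D2/Prol comparisons, had -0.78 (adjusted p = 0.132) and -0.93 (adjusted p = 0.0673) here. With the replicate number as a block, *Pom121* was called in KO D2/D0 (adjusted p = 0.00148), as were *Nup133*, *Ahctf1*, *Nup214*, *Gle1*, *Tpr* and *Nup50* (0.00173 to 0.0347). The WT D2/D0 count rested on single libraries, with 8 genes called without WT D0 replicate 3 and 10 without replicate 1 of both D0 groups and replicate 2 of both D2 groups. In KO D2/D0, 11 were called without KO D0 replicate 3, 13 without KO D2 replicate 2 and 10 without that same set of 4 libraries. Calls over all genes change with the setting too, and are not set beside these counts.

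The comparison of KO with WT asked whether loss of LAP2α altered these transcripts. No pore gene was called by limma in Prol, D0 or D2, and none had an unadjusted p under 0.05 in any of the 3 states, the smallest being 0.303. Of all genes, 0.00566% (1 gene), 0% and 0% were called in Prol, D0 and D2, and 1.11%, 1.47% and 1.96% had an unadjusted p under 0.05. For no pore gene did the KO and WT libraries separate in any state, against 4.41%, 3.02% and 6.17% of all genes. The median log2 fold change of KO over WT was 0.02 in Prol, 0.07 in D0 and -0.08 in D2. A p that misses the threshold does not show equal levels, but the 95% interval lay within 2-fold in either direction for 25 of 32 genes in Prol, 27 in D0 and 24 in D2, and within 1.5-fold for 8, 9 and 4. With the replicate number as a block, in which same-numbered WT and KO libraries are compared, it lay within 2-fold for 31 genes in each state, all but *Nup210*, and within 1.5-fold for 31, 30 and 24. No unadjusted p was under 0.05 with the block either.

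Within same-numbered pairs in D2, KO was below WT in all 3 pairs for 9 genes, among them *Nupl2*, *Nup88* and *Rae1*, against 17.5% of all genes. KO was above WT in all 3 pairs for 5 genes, against 14.7% of all genes, and for *Tpr* the log2 differences were 0.23, 0.24 and 0.23. In Prol, KO was lower in all pairs for 2 genes (13.1% of all genes) and higher for 5 (12.8%), and in D0 it was lower for 2 (9.94%) and higher for 7 (15.6%).

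**Figure D5:**
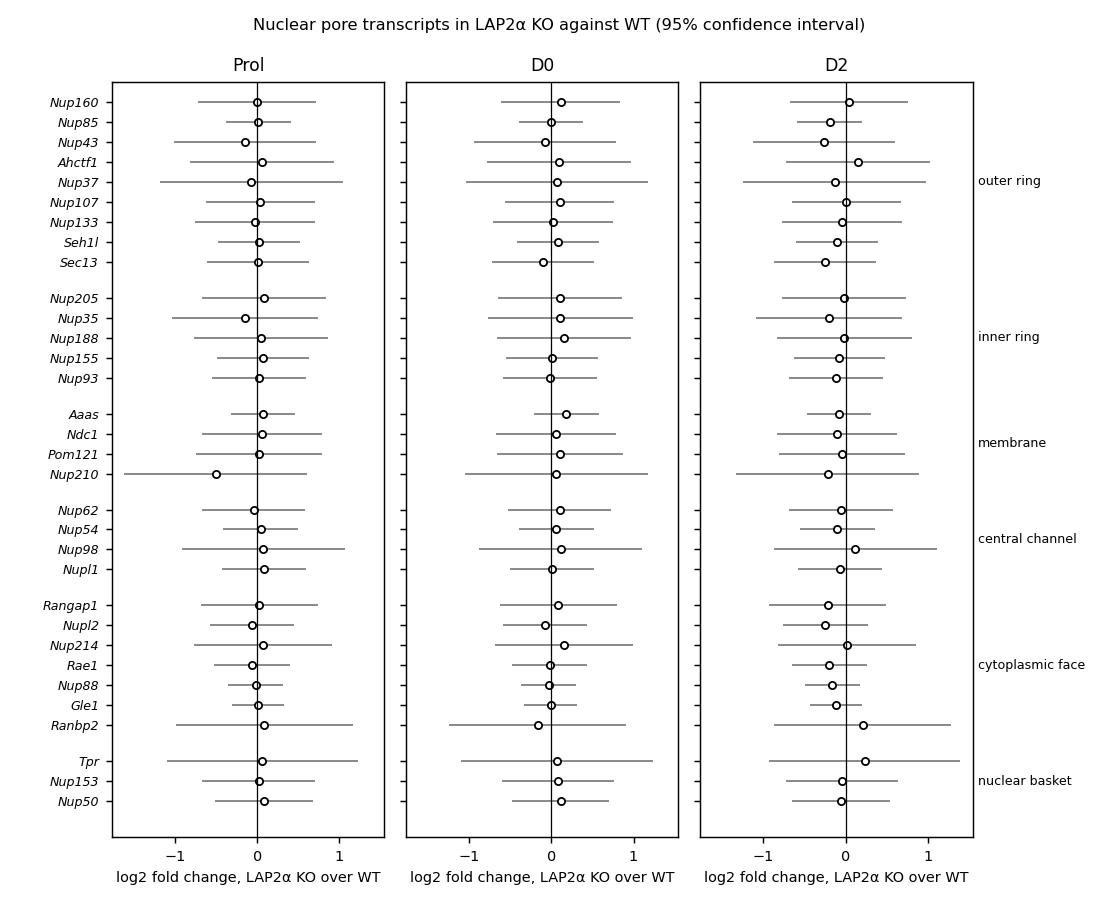
Log2 fold change of KO over WT for each of 32 pore transcripts in Prol, D0 and D2, with 95% confidence intervals. All intervals include 0, and those of *Nup37*, *Ranbp2*, *Tpr* and *Nup210* are among the widest.

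In Prol the smallest p-values were those of *Nup210*, *Aaas* and *Nup43*, whose libraries are given above for the first 2 genes. *Nup210* had a log2 fold change of -0.51 (95% interval -1.62 to 0.61) and *Aaas* of 0.07 (-0.32 to 0.47). *Nup43* was at 41.9, 67.2 and 57.1 CPM in WT Prol and 38.4, 53.9 and 56.5 CPM in KO Prol, with overlapping groups and a log2 fold change of -0.15 (-1.02 to 0.71). In D0 they were those of *Aaas* (0.18, -0.21 to 0.58), *Nup50* and *Nup188*. *Nup50* was at 103, 87.8 and 151 CPM in WT D0 and 130.4, 83.9 and 158 CPM in KO D0 (0.11, -0.48 to 0.70). *Nup188*, an inner ring scaffold protein, was at 220.4, 83.2 and 169 CPM in WT D0 and 227, 95.8 and 194 CPM in KO D0 (0.15, -0.67 to 0.97). The second replicate was lowest in both genotypes for *Nup50* and *Nup188*, and the spread within a genotype was larger than the difference between them.

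In D2 the smallest p-values were those of *Nup85*, *Nup88* and *Nupl2*. *Nup85*, with the D2 values above, had a log2 fold change of -0.20 (95% interval -0.59 to 0.19, unadjusted p = 0.303). *Nup88* was at 87.2, 118 and 103 CPM in WT D2 and 77.8, 94.6 and 103 CPM in KO D2 (-0.16, -0.49 to 0.17). *Nupl2* was at 4.21, 6.91 and 7.74 CPM in WT D2 and 3.82, 5.39 and 6.56 CPM in KO D2 (-0.25, -0.76 to 0.27). For these 3 genes the KO mean was below the WT mean and the libraries overlapped. Of the 32 genes, 25 had a log2 fold change below 0 in KO/WT D2, as did 9219 of the 17672 genes tested. Across the 32 genes this log2 fold change rose with exon length (r = 0.66, Spearman's rho = 0.63, n = 32). The genes share their libraries, and the median over expressed coding genes was 0.06 for those over 8 kb and -0.09 for those under 3 kb.

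Whether the KO effect changed from Prol to D2 was tested as an interaction. No pore gene was called, and none had an unadjusted p under 0.05, against 0% and 0.945% of all genes. The median was -0.11, and the smallest p-values were those of *Nup85* (-0.21, 95% interval -0.76 to 0.34) and *Nup88* (-0.14, -0.61 to 0.33), with unadjusted p-values in limma of 0.429 and 0.529. The interval lay within 2-fold for 14 of the 32 genes. When the fit was blocked by replicate number it lay within 2-fold for 31, the exception being *Nup210*, and within 1.5-fold for 11, and no unadjusted p was under 0.05.

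Other genes of nuclear transport and 15 proliferation genes are given for comparison. Of 45 transport genes, 26 fell and none rose in WT D2/Prol (median log2 fold change -0.76), and the same counts were found in KO D2/Prol (median -0.83). Of all genes tested, 14.1% were called lower and 16.6% higher in WT, and 15.2% and 17.1% in KO. The same shares stand beside the counts of the subgroups and of the proliferation genes below. All 6 Ran cycle genes fell in WT (median -1.35), as did 13 of 23 importins and exportins (-0.93), 4 of 12 mRNA export genes (-0.43) and 3 of 4 genes of the SUMO cycle (-0.66), the modification that attaches Rangap1 to Ranbp2. The lowest log2 fold changes were those of *Rcc1*, the nucleotide exchange factor of Ran, which went from 142 to 28.8 CPM in WT (-2.30 ± 0.25, adjusted p = 5.22e-06), and *Kpna2*, an importin α, which went from 222 to 52.4 CPM (-2.10 ± 0.26, adjusted p = 2.07e-05). No transport gene was called in KO/WT in any state, against 0.00566% (1 gene), 0% and 0% of all genes in Prol, D0 and D2. All 15 proliferation genes fell in WT and KO D2/Prol, with medians of -2.51 and -2.63. At D2 the pore genes and the proliferation genes thus moved in the same direction in the same libraries, and the part of a change in the share of dividing cells in the pore values was not tested.

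Promoter sequences were read for the 28 pore genes that matched by symbol in RefSeq (GRCm38.p6, 250 bases before to 50 after the start, 300 in all). They were searched on both strands for motifs of cell cycle, housekeeping and muscle factors. An E2F motif, spelled as TTCCCGC or in its other forms TTGGCGC and also TTCGCGC, was found in 5 of 28 pore genes (17.9%), against 9.20% of 27025 genes. The CHR (TTTGAA), an element of genes of late cell cycle phases, was found in 7 (25%, against 20.2%) and the CCAAT box in 10 (35.7%, against 41.1%). The NRF1 motif (GCGCATGC) was found in 4 (14.3%, against 3.05%) and a MyoD-type E-box (CAGCTG) in 1 (3.57%, against 18.3%). The GCGCATGC motif and its reverse complement overlap in 3 of these 4 genes. The 4 stretches below, each of 120 bases upstream of the start, are shown because *Ndc1*, *Nup107* and *Nup62* fell in both genotypes and carry the CHR, E2F and NRF1 motifs, and *Sec13*, which was not called, also carries a CHR. Capitals mark every match in these stretches, in *Ndc1* (chr4:107367927-107368046, plus strand) the E-box and the CHR, in *Nup107* (chr10:117792706-117792825, minus strand) the overlapping NRF1 matches and E2F, in *Nup62* (chr7:44815968-44816087, plus strand) the CCAAT box and the NRF1 matches, and in *Sec13* (chr6:113740812-113740931, minus strand) the CHR.
Ndc1: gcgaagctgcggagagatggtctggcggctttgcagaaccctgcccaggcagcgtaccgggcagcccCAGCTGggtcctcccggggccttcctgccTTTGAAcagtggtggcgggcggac
Nup107: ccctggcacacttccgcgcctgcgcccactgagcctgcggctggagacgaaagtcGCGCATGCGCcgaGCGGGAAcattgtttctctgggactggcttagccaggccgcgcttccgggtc
Nup62: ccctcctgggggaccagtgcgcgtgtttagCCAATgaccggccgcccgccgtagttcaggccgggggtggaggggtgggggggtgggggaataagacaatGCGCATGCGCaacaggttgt
Sec13: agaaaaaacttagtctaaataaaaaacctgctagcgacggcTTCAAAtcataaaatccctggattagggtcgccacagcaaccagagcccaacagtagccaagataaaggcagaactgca

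Genes with a match included some that fell at D2 and some that were not called. The E2F motif was present in *Aaas* (log2 fold change in WT D2/Prol of -1.66) and in *Nup210* (-0.49), and the CHR in *Rangap1* (-2.16), *Ndc1* (-1.66) and *Sec13* (0.26). The matches of *Aaas* and *Rangap1* lie after the start of their windows' transcripts. The *Rangap1* window (chr15:81729870-81730169) lies inside the gene (81704248 to 81745530, minus strand), and so not at its outermost start. A match is a description of the letters and not of binding, which was not measured in these libraries.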

How the data were processed

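The authors trimmed strand-specific single-end reads with cutadapt, mapped them to transcripts of the mouse build GRCm38, obtained expected counts from RSEM and scaled these with TMM factors of edgeR. The deposited values are CPM, in which 0.5 had been added to each expected count, and not whole reads. The build and these tools are also in the submitters' processing notes. Totals of 26437823 to 41619015 per library were recovered from the values, and *Nup210* had the fewest, with 19 to 65 expected counts.

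Log2 of the deposited CPM was fitted with limma 3.58.1 in R 4.3.3 (lmFit, eBayes with a variance trend), using the 6 groups as levels of 1 factor and all 18 libraries. A gene was tested if some group had over 5 expected counts in each of its 3 libraries, which left 17672 genes. No count test was run, since the values are not counts. Adjusted p-values (Benjamini-Hochberg) cover all genes tested, and 0.05 was the threshold. The members and lists were chosen with earlier results of these data known. The study used voom with the sequencing lane as a random block, and the labels give no lane. Exon lengths are the union of exons in GENCODE M21. In simulated data for WT D2/Prol, 41 of 100 genes with a simulated 2-fold change and 81 of 100 with a 4-fold change were recovered, all in the right direction, beside 6 of 17472 genes without a change. The changed genes were drawn from well-expressed genes, and noise was drawn independently in each library. The recovery thus does not cover genes as low as *Nup210*, or deviations shared by same-numbered libraries. Only 100 genes for each fold were changed among 17672, whereas 5424 genes were called in the real WT D2/Prol comparison. With so few changed genes the Benjamini-Hochberg adjustment is stricter, so the recovery is not an estimate for the real comparison.

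Values in every library are given for the 5 largest falls and up to 3 largest rises called in WT D2/Prol (no rise was called), the 3 smallest p-values in each KO/WT comparison, the 2 smallest of the interaction, *Nup210*, *Pom121* and *Ndc1*, and the highest and lowest level per kb. Within a comparison, deviations from the group mean in libraries of the same number correlated at over 0.1 for 25 of 27 pairs (0.01 to 0.645). The exceptions were replicate 3 in WT D2/Prol (0.0393) and WT D2/D0 (0.01). The main fit held no block, so its calls, standard errors, intervals and p-values are unpaired in every comparison. Pairing by replicate number entered only in the fits named as blocked, and the check did not back it in these 2 comparisons. Alternatives comprised weights from voom, scaling by library totals or by median of ratios, no filter, a pseudocount of 1, a fixed or random replicate block, only the groups compared, an unadjusted p under 0.05 with a change over 1.5-fold and at least 10 CPM and each library left out. A length correction with and without the block, fits without each of 2 sets of 4 libraries, and the cut-off of the study (unadjusted p under 0.05, absolute log2 fold change over 1.5, at least 10 CPM) were chosen later, with the data in view. Figures were drawn with matplotlib in Python.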

Additional observations from a re-analysis of the deposited data

How the results depend on the processing

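No pore gene was called higher in a D2 comparison under the 12 alternatives that kept all replicates or left out 4 libraries, and none was called in D0/Prol, KO/WT or the interaction under any of them. Counts for WT D2/Prol were 15 to 29 and for KO D2/Prol 18 to 29 under these 12. With an unadjusted p and 1.5-fold they were 25 and 26, and at the cut-off of the study, an absolute log2 fold change over 1.5, they were 6 and 8, and 2 and 6 in WT and KO D2/D0. In WT D2/D0 the 14 genes called became 26 with the replicate block, 26 with voom and a random replicate block, 28 with the length correction and block, 26 without D0 replicate 2 and D2 replicate 1 of both genotypes, 22 with an unadjusted p and 1.5-fold and 7 with only the groups compared, which leaves fewer libraries to estimate the spread. In KO D2/D0 the 21 became 12 with only the groups compared and 10 without D0 replicate 1 and D2 replicate 2 of both genotypes. The first of these sets of 4 libraries removes high D2 libraries and the second removes low ones. The pairing was not supported by the check in WT D2/Prol and WT D2/D0, and with the replicate block 29 and 26 genes were called there. In KO D2/Prol and KO D2/D0 the paired counts were 29 and 28, and the block changed no call in D0/Prol, KO/WT or the interaction. Leaving out 1 library at a time gave 13 to 24 in WT D2/Prol, 16 to 25 in KO D2/Prol, 8 to 19 in WT D2/D0 and 11 to 24 in KO D2/D0. Calls over all genes moved with the setting too. In WT D2/Prol, 2484 of 17672 genes were called lower in the main fit, beside 21 pore genes. With library totals they were 1952, beside 20 pore genes. A change in a pore count between settings thus does not by itself show a change particular to pore genes.

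Of 89 log2 fold changes followed, 81 kept their direction in every setting. The others were not called and were near 0 or widely spread. Without D0 replicate 1 and D2 replicate 2 of both genotypes, *Ranbp2* was 0.155 in WT D2/Prol and 0.261 in KO D2/Prol, *Sec13* was -0.018 in KO D2/Prol and *Nup50* was -0.001 in KO/WT D0. *Ranbp2* in KO D2/Prol was 0.063 with library totals alone, a scaling under which the median of all genes was 0.16 there. With 1 library left out, *Ranbp2* ranged from -0.681 to 0.155 in WT D2/Prol and from -0.523 to 0.261 in KO D2/Prol, *Sec13* from -0.114 to 0.165 and *Nup210* from -0.613 to 0.086 in KO D2/Prol. In KO/WT, *Aaas* ranged from -0.056 to 0.149 and *Nup43* from -0.341 to 0.021 in Prol, and *Nup50* from -0.087 to 0.37 and *Nup188* from -0.254 to 0.528 in D0. The causes were not tested. The median standard error for KO over WT was 0.32 on the log2 scale in the unpaired main fit and 0.17 with the replicate block.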
